A study of Homo sapiens with 6 samples.

Results

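The non-canonical NF-κB pathway was described through 8 genes, chosen by name among the 62703 genes of the deposited tables: MAP3K14, which encodes the kinase NIK; TRAF2, TRAF3, BIRC2 and BIRC3, whose products form the complex that holds NIK back; CHUK, which encodes the kinase IKKα; and NFKB2 and RELB, which encode the transcription factor subunits at the end of the pathway. Each symbol matched a single Ensembl gene, and all 8 had enough reads to be tested. The values come from paired-end RNA sequencing of H929 (NCI-H929), an established human multiple myeloma cell line labelled wild type, and so from a single line. One group of 3 libraries was given 1 µM Mi-2 for 24 h, a compound that inhibits the MALT1 protease, and the other 3 libraries received the solvent DMSO for the same 24 h. The labels give each library a number within its treatment, and every title ends in the same tag, bio rep 1. They do not state whether separate cultures were used. The p-values therefore reflect only the spread among these 6 libraries, which may be technical.

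In resting cells the complex of TRAF3, TRAF2 and the cIAP ubiquitin ligases marks NIK for destruction as fast as it is made. Receptors of the TNF receptor superfamily that recruit TRAF2 and TRAF3, among them BCMA, BAFF receptor, CD40 and lymphotoxin β receptor, take that complex away from NIK. NIK then accumulates and activates IKKα, which phosphorylates p100, the precursor encoded by NFKB2, so that the proteasome trims it to p52. The p52 protein enters the nucleus with RELB. The pathway is regulated mostly through protein stability and processing, which RNA levels do not show. Mutations that free NIK, such as losses of TRAF3, TRAF2, BIRC2 or BIRC3, recur in multiple myeloma. NFKB2, RELB and BIRC3 are themselves known NF-κB target genes. RELB protein is among the known substrates of the MALT1 protease, and its cleavage would not be seen in RNA.

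Total estimated counts were 21938893 to 23756745 in Mi-2 libraries and 19980689 to 22651557 in DMSO libraries. Pairs of libraries within a group differed by 16.35 to 23.54 times the chi-square expected per degree of freedom from counting alone. All 9 plasma cell markers examined, such as SDC1, IRF4 and TNFRSF17, averaged 1 TPM or more (a length-corrected level). Their sum was 10333 to 13455 TPM in Mi-2 libraries and 9485 to 13219 TPM in DMSO libraries, with JCHAIN the largest part. SDC1 (150.5 to 179 TPM with Mi-2, 233 to 296 TPM with DMSO) and CD38 (32.5 to 50.9 and 55.25 to 107 TPM) were lower in every Mi-2 library. IRF4 (611 to 673 and 437 to 545 TPM) and MZB1 (1627 to 2117 and 1064 to 1341 TPM) were higher in every Mi-2 library. The other plasma cell markers overlapped between the groups. The 6 myeloid markers summed to 0.3 to 0.63 TPM in Mi-2 libraries and 0.41 to 0.81 TPM in DMSO libraries, and the 4 markers of mature B cells to 0.53 to 1.42 and 0.39 to 0.6 TPM. The 7 T and NK cell markers summed to 42.5 to 47.7 TPM in Mi-2 libraries and 29.3 to 34.2 TPM in DMSO libraries, of which CD3E alone averaged over 1 TPM, while CD3D was at 0 in every library and CD3G at or below 0.15 TPM. The 7 markers of fibroblasts, endothelium and epithelium summed to 75.0 to 106.8 TPM in Mi-2 libraries and 61.9 to 79.7 TPM in DMSO libraries, nearly all of it PECAM1, with COL3A1 at 0. Their part in the results was not tested.

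RefSeq start-site windows (build GRCh38.p14) spanned 250 bases before to 50 bases after an annotated start. No window was found for RELB, so it could not be searched, and the other 7 of the 8 genes had 10 windows in all. They were searched on both strands for the κB consensus, the motif that NF-κB dimers are known to bind. The 4 windows below are all those that hold it, and they are shown for that reason alone. Capitals mark the matches to the consensus, with overlapping matches joined. These windows of 3 genes lie on the plus strand, at chr10:102394328-102394627 and chr10:102395455-102395754 for NFKB2, chr11:102317234-102317533 for BIRC3 and chr14:102777199-102777498 for TRAF3.
NFKB2, upstream window: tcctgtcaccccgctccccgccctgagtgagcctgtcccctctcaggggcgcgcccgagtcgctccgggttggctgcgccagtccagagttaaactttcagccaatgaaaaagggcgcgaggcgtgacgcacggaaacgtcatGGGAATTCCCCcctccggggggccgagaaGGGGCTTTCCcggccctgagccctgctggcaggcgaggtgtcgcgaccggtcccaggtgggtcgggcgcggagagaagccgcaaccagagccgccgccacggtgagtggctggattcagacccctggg
NFKB2, downstream window: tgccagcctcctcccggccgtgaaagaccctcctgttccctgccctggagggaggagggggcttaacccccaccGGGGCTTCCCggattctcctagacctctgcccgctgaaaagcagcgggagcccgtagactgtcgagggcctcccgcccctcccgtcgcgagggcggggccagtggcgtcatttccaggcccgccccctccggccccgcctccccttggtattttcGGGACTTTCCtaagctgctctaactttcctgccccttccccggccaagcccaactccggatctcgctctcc
BIRC3: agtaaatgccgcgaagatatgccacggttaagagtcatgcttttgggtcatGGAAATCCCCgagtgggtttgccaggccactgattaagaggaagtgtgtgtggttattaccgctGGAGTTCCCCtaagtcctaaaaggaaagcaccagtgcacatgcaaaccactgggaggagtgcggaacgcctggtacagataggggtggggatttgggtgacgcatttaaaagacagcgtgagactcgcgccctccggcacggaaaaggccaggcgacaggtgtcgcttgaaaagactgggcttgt
TRAF3: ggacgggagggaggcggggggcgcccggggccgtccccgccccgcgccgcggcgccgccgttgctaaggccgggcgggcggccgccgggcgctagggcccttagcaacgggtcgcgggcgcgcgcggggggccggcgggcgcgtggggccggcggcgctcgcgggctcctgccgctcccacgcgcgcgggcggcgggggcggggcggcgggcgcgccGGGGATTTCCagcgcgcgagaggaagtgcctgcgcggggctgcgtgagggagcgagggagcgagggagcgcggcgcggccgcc

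The upstream NFKB2 window held 2 places with a match, GGGAATTCCCC starting 107 bases before the start site and GGGGCTTTCC starting 78 bases before it. The downstream NFKB2 window held GGGGCTTCCC at 176 bases and GGGACTTTCC at 21 bases before its own start. BIRC3 held GGAAATCCCC at 199 bases and GGAGTTCCCC at 135 bases before the start, both as matches on the minus strand, and TRAF3 held GGGGATTTCC at 33 bases. Of all 35116 RefSeq windows of the same length, 11.3% held at least 1 match, against 4 of the 10 windows here. The 10 are not independent, as NFKB2 gave 2 of the 4 and the windows of BIRC2 overlap each other. By gene, 3 of the 7 searched held a match, and enrichment was not tested. Another NFKB2 window, which lies upstream of both printed here (chr10:102393860-102394159), held no consensus match. Nor did those of MAP3K14, TRAF2, BIRC2 and CHUK. A match is a string of letters and does not show that a factor binds there.

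The comparison asks how the RNAs of the non-canonical pathway stood after MALT1 inhibition. With Mi-2, TRAF2 and TRAF3 fell, to levels 1.35-fold and 1.38-fold lower than with DMSO. In this fit, which took no account of library number, no member rose past the threshold. NFKB2, RELB and BIRC3 had lower means within a spread too wide for a call. With the library number as a block, edgeR also called NFKB2, RELB and BIRC3 lower (adjusted p = 0.00576, 0.0145 and 0.00294) and BIRC2 higher (0.0368). That fit called 3826 of the 16082 tested genes, and the labels name no pairs. Without the block, edgeR called 0 of the 8 genes higher and 2 lower at an adjusted p under 0.05. Of all 16082 tested genes it called 5.02% higher and 6.03% lower. At an unadjusted p under 0.05 edgeR had 1 of the 8 higher and 5 lower, beside 12.9% and 14.1% of all tested genes. DESeq2 called 0 higher and 2 lower, beside 7.03% and 8.93% of the 14116 genes to which it gave an adjusted p. The median log2 fold change of the 8 was -0.45 (Mi-2 over DMSO), beside 0.0050 over all tested genes. Negative values numbered 7 of the 8, beside 7925 of the 16082 tested genes. The groups' ranges of CPM (counts scaled to library size and normalised between libraries) did not overlap for 3 of the 8, against 32.3% of all tested genes. Fewer cells of a kind and less RNA per cell cannot be told apart in these bulk samples.

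**Figure D1:**
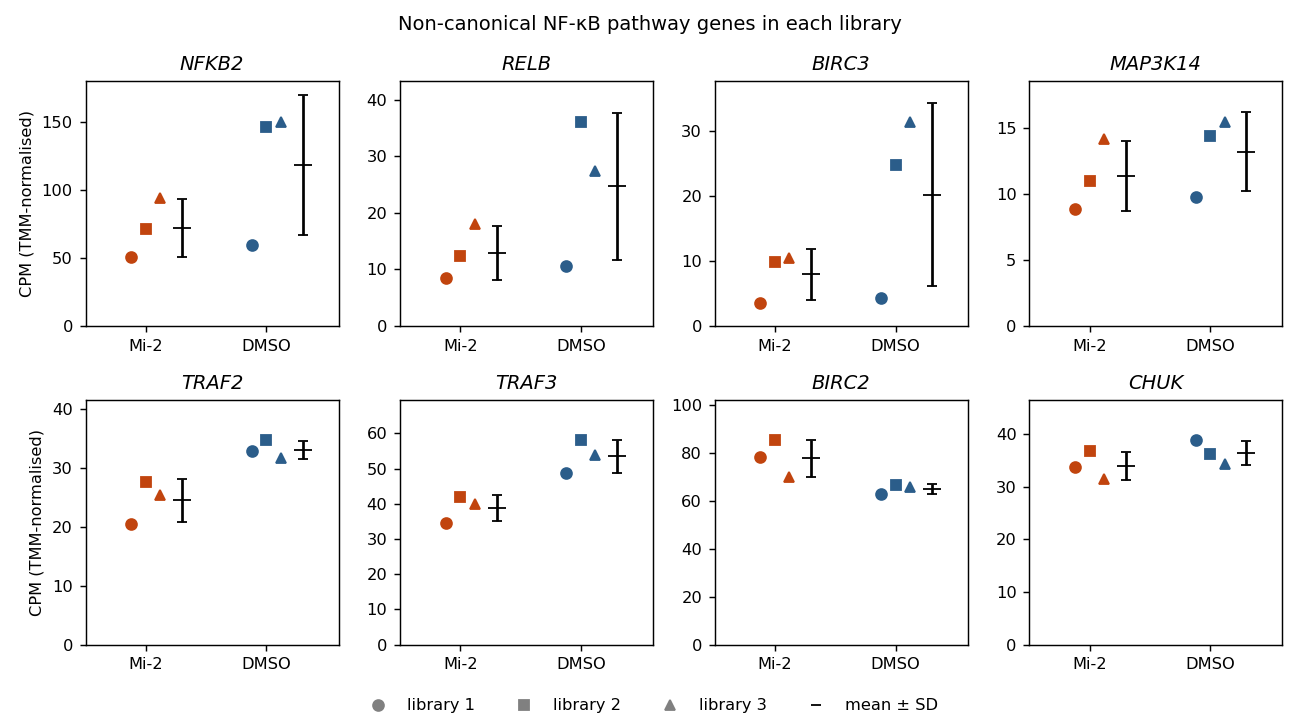
Normalised CPM of the 8 genes in each library, with Mi-2 on the left and DMSO on the right of every panel, 1 symbol per library number, and the mean ± SD of 3 libraries in black; each vertical axis starts at 0. TRAF2, TRAF3 and BIRC2 form separate groups, whereas DMSO library 1 lies within the Mi-2 values for NFKB2, RELB and BIRC3.

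TRAF3, the adaptor that binds NIK directly and brings it to the ubiquitin ligases (chromosome 14, 102777476 to 102911500, plus strand in GENCODE 29), had 34.5, 41.8 and 39.9 CPM in Mi-2 libraries 1, 2 and 3, against 48.6, 58.0 and 53.8 CPM in DMSO libraries 1, 2 and 3. Every Mi-2 library was below every DMSO library. The means were 38.7 ± 3.76 CPM with Mi-2 and 53.5 ± 4.69 CPM with DMSO (SD, n = 3 each), and the log2 fold change was -0.47 ± 0.10 (SE; edgeR adjusted p = 0.0220), or 1.38-fold lower. TRAF2, the adaptor that links TRAF3 to the cIAPs (chromosome 9, 136881912 to 136926607, plus strand), had 20.5, 27.6 and 25.45 CPM in Mi-2 libraries 1, 2 and 3, against 32.9, 34.7 and 31.7 CPM in DMSO libraries 1, 2 and 3. Again the groups did not overlap, with Mi-2 library 1 the lowest of the 6. Means were 24.5 ± 3.63 CPM with Mi-2 and 33.1 ± 1.53 CPM with DMSO (SD, n = 3 each), and the log2 fold change of -0.43 ± 0.12 just passed the threshold (edgeR adjusted p = 0.0488).

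The call of TRAF2 was close to the threshold, and both calls depended on which libraries were kept. With all 6 libraries DESeq2 gave an adjusted p of 0.00277 for TRAF3 and 0.0192 for TRAF2. Leaving out a single library, TRAF3 was not called without Mi-2 library 1, DMSO library 2 or DMSO library 3 (edgeR adjusted p = 0.0899, 0.0918 and 0.0676), while TRAF2 kept its call in 1 of the 6 cases, when Mi-2 library 2 was absent (0.0438), and had an adjusted p of 0.0757 to 0.160 in the others. In the deposited TPM values, which are corrected for length, TRAF3 had 8.14, 8.67 and 8.59 TPM with Mi-2 and 10.2, 12.7 and 9.44 TPM with DMSO, and limma on log2(TPM + 1) called neither TRAF3 (-0.31 ± 0.13, adjusted p = 0.214) nor TRAF2 (-0.43 ± 0.14, adjusted p = 0.126). In the 3 leave-outs that lost the call of TRAF3 its log2 fold change was -0.39, -0.40 and -0.47.

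BIRC2 and BIRC3 encode cIAP1 and cIAP2, the related ubiquitin ligases of the complex, and lie 7807 bases apart on the plus strand of chromosome 11 (BIRC3 at 102317450 to 102339403, BIRC2 at 102347211 to 102378670). Their values had opposite signs. BIRC2 had 78.3, 85.1 and 69.7 CPM in Mi-2 libraries 1, 2 and 3, against 62.6, 66.35 and 65.7 CPM in DMSO libraries 1, 2 and 3. Each Mi-2 library was above each DMSO library in CPM, although the TPM values overlapped, at 28.8 to 35.7 TPM with Mi-2 and 25.2 to 33.5 TPM with DMSO. The log2 fold change of BIRC2 was 0.26 ± 0.09 and did not pass (edgeR adjusted p = 0.0996). Without Mi-2 library 3 it was called at the margin (0.33, edgeR adjusted p = 0.0491).

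BIRC3 was the most variable of the 8. It had 3.49, 9.79 and 10.5 CPM in Mi-2 libraries 1, 2 and 3, against 4.38, 24.75 and 31.35 CPM in DMSO libraries 1, 2 and 3, from rounded counts of 77, 227 and 250 with Mi-2 and 88, 560 and 680 with DMSO. DMSO library 1 lay between the lowest Mi-2 library and the other two. The means were 7.92 ± 3.85 CPM with Mi-2 and 20.2 ± 14.1 CPM with DMSO (SD, n = 3 each), and the log2 fold change of -1.35 ± 0.59 was the largest in size of the 8 genes without passing (edgeR adjusted p = 0.177). BIRC2 and BIRC3 are paralogues, and reads that fit both could have been divided between them by the estimated counts.

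MAP3K14, which encodes NIK (chromosome 17, 45263119 to 45317145, minus strand), had 8.85, 10.99 and 14.1 CPM in Mi-2 libraries 1, 2 and 3, against 9.79, 14.4 and 15.45 CPM in DMSO libraries 1, 2 and 3. The groups overlapped, and the log2 fold change was -0.22 ± 0.21 (edgeR adjusted p = 0.550). Leaving out Mi-2 library 3 gave -0.41, and leaving out Mi-2 library 1 gave -0.072. The antisense gene MAP3K14-AS1 shares 5512 bases with MAP3K14 on the opposite strand. It had 4.13, 3.28 and 3.98 CPM with Mi-2 and 2.83, 2.61 and 2.17 CPM with DMSO (log2 fold change 0.58 ± 0.22, edgeR adjusted p = 0.114). The sources used here do not say if strand was used in counting, so reads of this pair cannot be told apart.

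CHUK, which encodes IKKα, the kinase that NIK activates (chromosome 10, 100188298 to 100229619, minus strand), was the steadiest member. Its libraries stood at 33.8, 36.7 and 31.4 CPM with Mi-2 and 38.8, 36.1 and 34.3 CPM with DMSO, which overlap. The log2 fold change was -0.10 ± 0.10 (edgeR adjusted p = 0.559), and it ran from -0.16 to -0.046 when a library was left out.

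NFKB2, the gene of p100 and p52 (chromosome 10, 102394110 to 102402529, plus strand), had 50.9, 71.8 and 93.9 CPM in Mi-2 libraries 1, 2 and 3, against 59.4, 146.5 and 150.4 CPM in DMSO libraries 1, 2 and 3. DMSO libraries 2 and 3 were above all Mi-2 libraries, while DMSO library 1 was below Mi-2 libraries 2 and 3. The means were 72.2 ± 21.5 CPM with Mi-2 and 118.8 ± 51.5 CPM with DMSO (SD, n = 3 each), with a log2 fold change of -0.72 ± 0.32 that did not pass (edgeR adjusted p = 0.184). RELB, which encodes the partner of p52 (chromosome 19, 45001430 to 45038198, plus strand), had 8.48, 12.4 and 18.03 CPM in Mi-2 libraries 1, 2 and 3, against 10.6, 36.1 and 27.4 CPM in DMSO libraries 1, 2 and 3. The arrangement was the same as for NFKB2, with DMSO library 1 inside the Mi-2 range. RELB had a log2 fold change of -0.93 ± 0.39 (edgeR adjusted p = 0.160).

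Among the 6 cases of leaving out 1 library, NFKB2, RELB and BIRC3 were called only when it was DMSO library 1. Without that library their log2 fold changes were -1.04, -1.29 and -1.82, and all of them were called lower (edgeR adjusted p = 0.0172, 0.0198 and 0.0165). Leaving out any other single library gave none of the 3 a call, and the values nearest to 0 were then -0.52 for NFKB2, -0.55 for RELB and -0.88 for BIRC3. With all 6 libraries and no filter on low counts the 3 genes were also called, in a fit that did not use each gene's own spread between libraries. With library 1 left out of both groups, a choice made after the values were seen, NFKB2 (-0.84, adjusted p = 0.0353) and BIRC3 (-1.47, adjusted p = 0.0179) were called, and RELB (-1.06, adjusted p = 0.0528), TRAF3 (-0.45, adjusted p = 0.0838) and TRAF2 (-0.32, adjusted p = 0.227) were not (edgeR). In each group library 1 had the lowest NFKB2, RELB, BIRC3 and MAP3K14, and it also had the fewest reads of its group, at 21938893 counts with Mi-2 and 19980689 with DMSO. The part of depth or of shared handling was not tested.

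**Figure D2:**
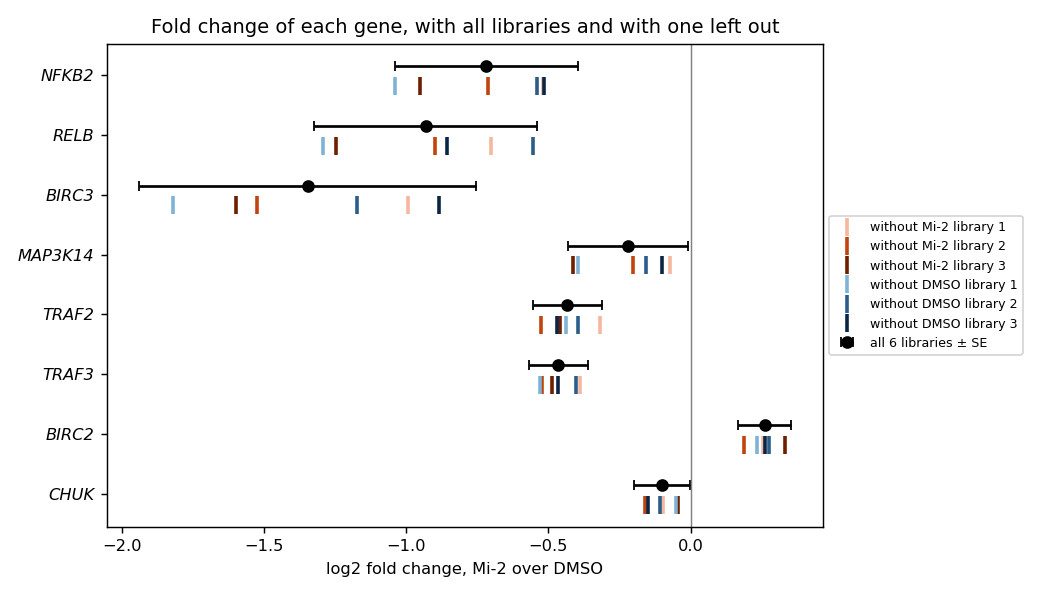
Log2 fold change of each gene, Mi-2 over DMSO, with all 6 libraries (black points, bars are 1 SE) and with each library left out (coloured ticks). The ticks of NFKB2, RELB and BIRC3 spread widely, from -0.88 to -1.82 for BIRC3, those of MAP3K14 from -0.072 to -0.41, while those of TRAF2, TRAF3, BIRC2 and CHUK stay close together; no tick crosses 0.

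All members but MAP3K14 fell into 2 kinds by their spread within a group. The within-group SD of log2 CPM was 1.25 for BIRC3, 0.76 for RELB and 0.62 for NFKB2, and only 0.945%, 3.40% and 6.31% of tested genes had a larger one. MAP3K14 was intermediate at 0.34. For TRAF2, TRAF3, BIRC2 and CHUK it was 0.16, 0.14, 0.11 and 0.10, all below the median of 0.18 over all tested genes. NFKB2, RELB and BIRC3 were thus the members that differed most between libraries of the same treatment. Whether the other members are NF-κB targets was not examined, so the spread is not set against target status. This grouping was made after the values were seen, and the difference in spread was not tested.

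In TPM, the scale on which genes can be set beside each other, NFKB2 was the highest of the 8 in both groups, at 53.8 ± 13.04 TPM with Mi-2 and 91.1 ± 42.9 TPM with DMSO (SD, n = 3 each). BIRC2 came next, at 32.1 ± 3.48 TPM with Mi-2 and 28.3 ± 4.50 TPM with DMSO, and its range was apart from those of its neighbours in either group. TRAF2, RELB, CHUK and TRAF3 followed at means of 8.47 to 15.6 TPM with Mi-2 and 10.8 to 21.2 TPM with DMSO, in an order in which each overlapped the next. MAP3K14 was near the bottom at 3.38 ± 0.838 TPM with Mi-2 and 4.03 ± 0.846 TPM with DMSO. BIRC3 stood at 1.77 ± 0.638 TPM with Mi-2, below the range of MAP3K14, and at 5.52 ± 4.07 TPM with DMSO, where the ranges overlapped. TRAF3 RNA was above MAP3K14 RNA in every library, by 2.01-fold to 3.11-fold with Mi-2 and 2.102-fold to 3.35-fold with DMSO.

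Each ratio was then set per library, since a ratio between related genes does not depend on the scaling between libraries. NFKB2 over its canonical counterpart NFKB1, the gene of p105 and p50, was 2.63, 2.79 and 3.22 in TPM in Mi-2 libraries 1, 2 and 3, against 2.73, 4.84 and 6.01 in DMSO libraries 1, 2 and 3. BIRC3 over BIRC2 was 0.0334, 0.0552 and 0.0796 with Mi-2 and 0.0384, 0.202 and 0.336 with DMSO, and RELB over RELA was 0.0679, 0.139 and 0.160 with Mi-2 and 0.102, 0.315 and 0.284 with DMSO. For all of these, DMSO library 1 lay within the Mi-2 values. The mean log2 ratios differed, Mi-2 minus DMSO, by -0.58, -1.38 and -0.87 (exact two-sided permutation p = 0.3 for each, and 0.5 after Benjamini-Hochberg adjustment over 5 ratios). With 3 libraries against 3 the smallest p the test allows is 0.1. The differences were -0.081 for TRAF3 over MAP3K14 (exact permutation p = 0.7, also when adjusted) and -0.19 for TRAF2 over MAP3K14 (exact permutation p = 0.5, adjusted 0.625).

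**Figure D3:**
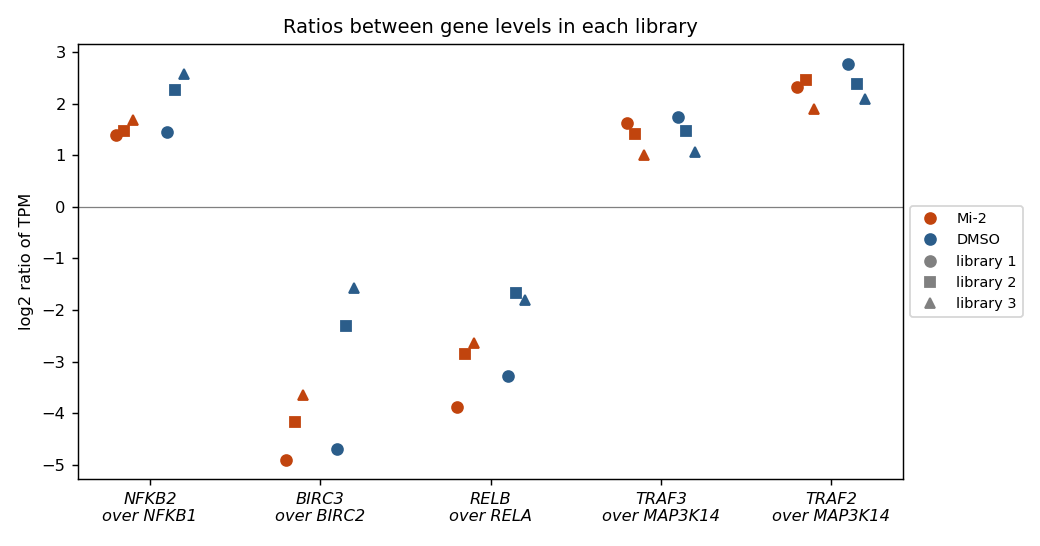
Log2 ratio of TPM between pairs of genes in each library, with Mi-2 to the left of DMSO in each pair and 1 symbol per library number. For NFKB2 over NFKB1, BIRC3 over BIRC2 and RELB over RELA, DMSO libraries 2 and 3 lie above all Mi-2 libraries and DMSO library 1 does not; the ratios to MAP3K14 overlap between the groups.

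Upstream of the complex, TNFRSF17 had the highest level of the receptors. TNFRSF17, which encodes BCMA, stood at 758, 726 and 575 TPM in Mi-2 libraries 1, 2 and 3, against 906, 733 and 635 TPM in DMSO libraries 1, 2 and 3. The groups overlapped, with a log2 fold change of -0.12 ± 0.13 (edgeR adjusted p = 0.611), which ran from -0.21 to 0.011 when a library was left out. TNFRSF1B, which encodes the TNF receptor TNFR2, was next among the 10 receptors and was the only one called, at 8.36, 7.96 and 12.1 TPM with Mi-2 and 13.7, 14.99 and 13.2 TPM with DMSO. In CPM it had 24.5, 23.6 and 32.0 with Mi-2 and 38.8, 43.1 and 41.2 with DMSO, without overlap (log2 fold change -0.62 ± 0.13, edgeR adjusted p = 0.0153). The TNFRSF1B call was lost in 3 of 6 cases of leaving out 1 library (Mi-2 library 1, DMSO library 2, DMSO library 3), with a highest edgeR adjusted p of 0.0697. TNFRSF12A, the receptor of TWEAK, averaged 3.34 TPM over all libraries, and the other 7, among them TNFRSF13B (TACI), TNFRSF13C (BAFF receptor), CD40 and LTBR, averaged under 1 TPM. Of the 10, 6 were tested, and edgeR called 0 higher and 1 lower, beside 5.02% and 6.03% of all tested genes. At an unadjusted p under 0.05 it had 0 higher and 2 lower, beside 12.9% and 14.1% of all tested genes. DESeq2 called 0 higher and 1 lower, beside 7.03% and 8.93%.

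The ligands of these receptors had low levels. Only CD70 (0.71, 2.08 and 1.28 TPM with Mi-2 and 1.07, 0.89 and 3.24 TPM with DMSO) and TNFSF13B, which encodes the BCMA ligand BAFF (1.89, 1.88 and 0.52 TPM with Mi-2 and 0.52, 1.85 and 0.23 TPM with DMSO), averaged 1 TPM or more. Both overlapped between the groups. Of 10 ligands, 3 had enough reads to be tested, and edgeR called 0 of them, beside 5.02% of all tested genes higher and 6.03% lower. It had 0 also at an unadjusted p under 0.05, beside 12.9% and 14.1% of all tested genes. DESeq2 called 0, beside 7.03% and 8.93%. TNFSF11 and TNFSF8 had 0 counts in every library, which with 3 counts as the limit allows at most 0.126 to 0.150 CPM, by counting error only.

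**Figure D4:**
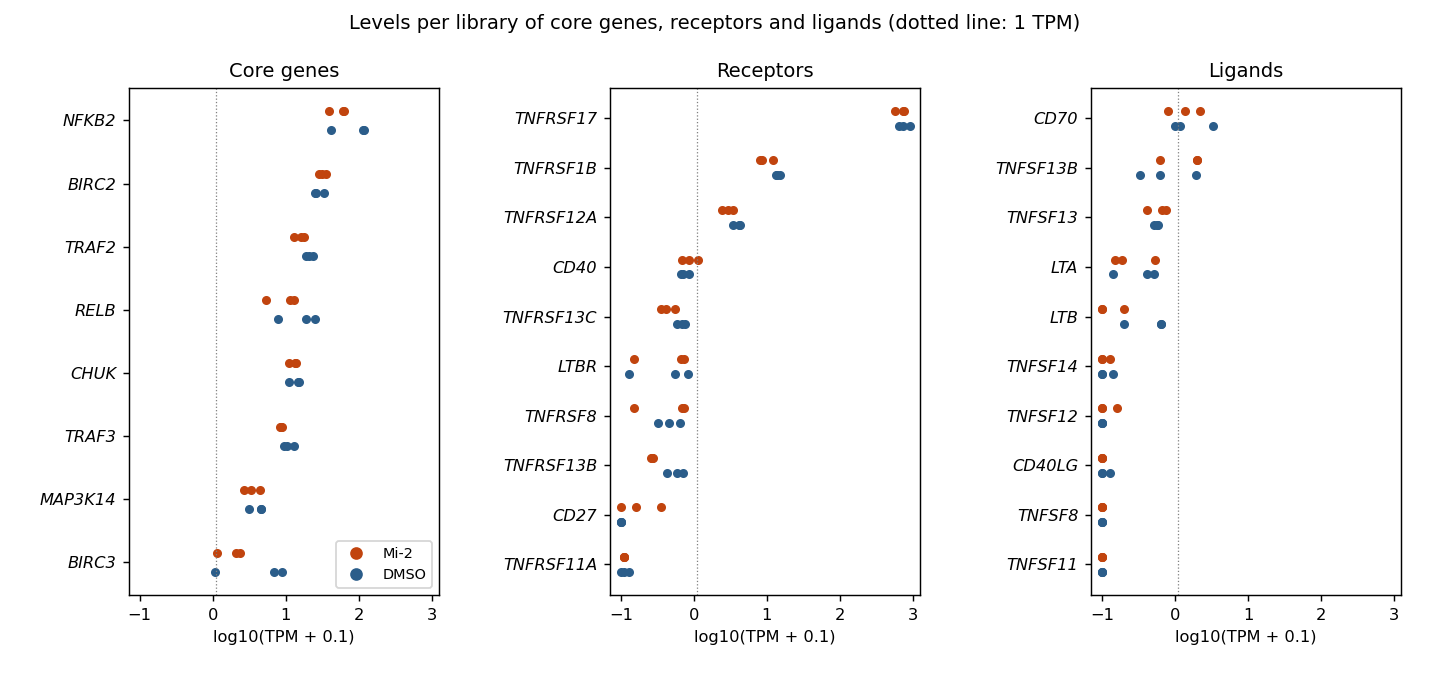
Levels of the 8 core genes, 10 receptors and 10 ligands as log10(TPM + 0.1), with Mi-2 libraries above DMSO libraries for each gene and the dotted line at 1 TPM. TNFRSF17 stands far to the right of the other receptors, and 8 of the 10 ligands average under 1 TPM.

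Regulators of NIK, TRAF3 and p100 outside the core set were read from a list of 15 genes. Of the 15, 14 were tested and edgeR called 0, beside 5.02% of all tested genes higher and 6.03% lower. At an unadjusted p under 0.05 it had 0 higher and 1 lower (CUL1, named after its value was seen), beside 12.9% and 14.1%. DESeq2 called 0, beside 7.03% and 8.93%. The list's median log2 fold change was 0.063, beside 0.0050 over all tested genes. SKP1 and RBX1, subunits of the ubiquitin ligase that acts on phosphorylated p100, had the highest levels averaged over all 6 libraries. OTUB1 was above RBX1 in each Mi-2 library, at 53.5, 52.6 and 58.1 TPM, and below it in each DMSO library, at 49.1, 52.6 and 51.1 TPM. SKP1 had 244, 234 and 209 TPM with Mi-2 and 218, 221 and 207 TPM with DMSO (0.09 ± 0.08, edgeR adjusted p = 0.525). RBX1 had 50.7, 50.4 and 49.3 TPM with Mi-2 and 58.6, 58.8 and 54.5 TPM with DMSO, without overlap (-0.16 ± 0.08, edgeR adjusted p = 0.218).

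The canonical counterparts of NFKB2 and RELB overlapped between the groups in CPM in all cases, while 32.3% of all tested genes did not overlap. Of 9 genes tested, edgeR called 0, beside 5.02% of all tested genes higher and 6.03% lower. It had 0 also at an unadjusted p under 0.05, beside 12.9% and 14.1%. DESeq2 called 0, beside 7.03% and 8.93%. RELA had 105.8, 113.7 and 108.4 CPM with Mi-2 and 101.5, 108.7 and 101.6 CPM with DMSO (0.07 ± 0.08, edgeR adjusted p = 0.604). NFKB1 had 33.7, 49.6 and 44.2 CPM with Mi-2 and 34.9, 55.9 and 49.3 CPM with DMSO (-0.14 ± 0.18, edgeR adjusted p = 0.676), a value that ran from -0.31 to 0.011 when a library was left out. NFKBIA, the gene of the inhibitor IκBα and itself a target, had 22.9, 47.99 and 41.1 CPM with Mi-2 and 25.3, 128.0 and 77.6 CPM with DMSO, and the most negative value of the 9 (-1.04 ± 0.47, edgeR adjusted p = 0.185). As for NFKB2, RELB and BIRC3, it was called in 1 of the 6 cases of leaving out a library, that without DMSO library 1 (-1.46, edgeR adjusted p = 0.0166), and its value was nearest to 0 at -0.46 without DMSO library 2 (adjusted p = 0.586).

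A list of 11 genes used as an NF-κB readout in myeloma holds NFKB2, RELB and BIRC3 themselves, so it is not independent of the set. All 11 log2 fold changes were negative with the 6 libraries, with a median of -0.93. Over the 16082 tested genes 7925 were negative, and the median was 0.0050. Among the DMSO libraries, all of the 11 but WNT10A were lowest in library 1, so they are not separate observations. Whichever library was left out, 7 of the 11 stayed negative. CD74 (1.39) and IL2RG (0.55) turned positive without DMSO library 3, NFKBIE (0.25) without DMSO library 2, and WNT10A without DMSO library 2 (0.047) or Mi-2 library 1 (0.035). Of the 11, edgeR called 0, beside 5.02% of all tested genes higher and 6.03% lower, and DESeq2 called 0, beside 7.03% and 8.93%. At an unadjusted p under 0.05 edgeR had 5 lower, beside 14.1% of all tested genes, and 3 of those 5 were NFKB2, RELB and BIRC3, already counted above. TNFAIP3, the gene of the NF-κB inhibitor A20, had 8.94, 24.1 and 29.8 CPM with Mi-2 and 14.6, 78.99 and 69.7 CPM with DMSO (-1.38 ± 0.55, edgeR adjusted p = 0.142), and it too was called without DMSO library 1 (-1.83, adjusted p = 0.0173). The gene of the inhibited protease, MALT1, had 55.1, 59.15 and 50.2 CPM with Mi-2 and 63.1, 69.0 and 66.3 CPM with DMSO, without overlap (-0.27 ± 0.09, edgeR adjusted p = 0.0793). The 5 chemokine genes known as targets of RELB and p52 in other cells were too low to be tested. CXCL12, CCL19 and CCL21 had 0 counts in every library, and CXCL13 and CCL22 reached at most 3 and 13 counts, in DMSO libraries.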

How the data were processed

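RNA of H929 cells was extracted with TRIzol and sequenced in paired ends on a NovaSeq instrument, per the labels' protocols. The submitters' processing notes name the build GRCh38.p13 and, without roles, the tools RSEM 1.3.3, StringTie 2.1.0, HISAT2 2.1.0 and fastp 0.19.5. The authors deposited a table of estimated counts per gene, not scaled between libraries, and a table of TPM values, corrected for length; RNA selection and use of strand are not stated there. Symbols came from a table of Ensembl IDs, positions from GENCODE 29 (GRCh38), promoter windows from RefSeq.

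Estimated counts were rounded, filtered with filterByExpr (minimum count 10, total 15; 16082 genes left), scaled by TMM and tested in R 4.3.3 with edgeR 4.0.16 (quasi-likelihood), Mi-2 against DMSO with no other term. P-values were adjusted by Benjamini-Hochberg over every tested gene and called under 0.05. The SE is the log2 fold change divided by the root of F. Alternatives used DESeq2 1.42.0, limma 3.58.1 and other scalings and filters, including limma on log2(TPM + 1), a scale that understates changes of low genes. The test was checked on simulated counts. The biological coefficient of variation was 14.2%. The 8 genes and the other lists were chosen with earlier results of these data known. Named genes were the 8 members, called genes and fixed examples of each list, the 2 members of each list with the highest TPM, and the 5 genes most like NFKB2 and TRAF3; the genes overlapping MAP3K14 were added later.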

Additional observations from a re-analysis of the deposited data

How the results depend on the processing

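No log2 fold change of the 8 genes changed sign under any alternative. MAP3K14 and CHUK had no call under any of them. Of 8 members, 2 were called lower; it was 1 with upper-quartile scaling, 5 without a filter on low counts, and 0 with limma on log2(TPM + 1), log2(TPM + 0.1) or log2(TPM + 1) without a TPM filter, where 2 were lower at an unadjusted p under 0.05. All genes called numbered 1777, against 2762 without a filter, 610, 647 and 0 by limma on TPM in the same order (3808 at an unadjusted p under 0.05 in the last), and 341 with library 1 left out of both groups. Leaving out 1 library gave 0 to 4 members lower, 0 to 1 higher and 518 to 1581 genes called. Without a filter NFKB2, RELB and BIRC3 joined TRAF2 and TRAF3, but that edgeR fit had an infinite prior df (5.72 in the filtered fit), so it gave every gene the spread of the trend and ignored the gene's own, and its calls are no measure of these genes' replicate error. The cause of the other shifts was not tested. Fits with a library left out also have fewer libraries. Leaving out 1 library, the log2 difference in ratio ran from -0.91 to -0.34 for NFKB2 over NFKB1 and -2.30 to -0.74 for BIRC3 over BIRC2. For RELB over RELA it ran from -1.38 to -0.49, and for TRAF2 over MAP3K14 from -0.36 to -0.014. For TRAF3 over MAP3K14 it ran from -0.26 to 0.092, and turned positive without Mi-2 library 3 or DMSO library 1. Each move was under the larger of the groups' SDs. Leaving out 1 of 3 libraries cannot move a mean further than that, so this does not show stability. With the replicate block, BIRC2 was called higher (edgeR adjusted p = 0.0368), and NFKB2 (0.00576), RELB (0.0145) and BIRC3 (0.00294) joined TRAF2 and TRAF3 as lower with all 6 libraries, which makes 1 member higher and 5 lower, and 3826 genes in all. The labels name no pairs. Deviations of same-numbered libraries from their group means correlated at 0.41, 0.059 and 0.26 over 16082 genes for numbers 1, 2 and 3. Different-numbered libraries of the 2 groups correlated at -0.33 to 0.079. Deviations within a group cancel out, so positive values for same numbers bring negative ones for different numbers. The latter are thus no separate baseline for pairing. Libraries numbered 1 and 3 thus correlated most with their own number. Mi-2 library 2 correlated more with DMSO library 3 (0.079) than with DMSO library 2. Low genes such as the ligands had too few counts at this depth for a comparison.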

Other observations

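The 5 genes whose log2 CPM, centred within each group, ran most like NFKB2 across the 6 libraries were RIPK2, a kinase of NOD receptor signalling (Pearson r = 0.998), TRAF4, another TRAF family adaptor (0.996), TMEM63B (0.992), USP22 (0.992) and ZMIZ2 (0.992). RIPK2 had 12.5, 14.6 and 15.7 CPM in Mi-2 libraries 1, 2 and 3, against 15.3, 22.0 and 22.4 CPM in DMSO libraries 1, 2 and 3. TRAF4 had 12.4, 17.7 and 22.4 CPM in Mi-2 libraries and 20.3, 42.7 and 42.5 CPM in DMSO libraries, and missed the threshold narrowly (log2 fold change -1.01 ± 0.28, edgeR adjusted p = 0.0501). TMEM63B, by contrast, was higher with Mi-2 (0.51 ± 0.12, edgeR adjusted p = 0.0243); the likeness is measured within groups and does not use the difference between them. For TRAF3 the 5 nearest were KCNQ5 (0.998), DAXX (0.997), ZNF318 (0.996), EDRF1 (0.996) and THEM4 (0.995), none of which was called by edgeR (adjusted p = 0.244 to 0.983). The genes compared were 8061 with a known symbol and an average log2 CPM of at least 4. Of these, 109 had an r over 0.95 with NFKB2 and 176 with TRAF3. The named genes were picked as the highest among them, from 6 libraries, and their likeness was not tested.

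CD74, the invariant chain gene in the myeloma readout list, differed more between libraries of 1 treatment than any core gene. It had 0.1815, 2.33 and 43.7 CPM in Mi-2 libraries 1, 2 and 3, against 0.348, 11.2 and 98.1 CPM in DMSO libraries 1, 2 and 3. It was named after its values were seen, and its log2 fold change of -1.24 ± 1.44 did not pass (edgeR adjusted p = 0.630). The value turned to 1.39 without DMSO library 3 and was -4.84 without Mi-2 library 3.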
